A study of Mus musculus with 29 samples.

Results

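Messenger RNA of 10 genes of the endoplasmic reticulum (ER) folding machinery and its stress response was followed in the mouse uterus around implantation. The genes are Hspa5, Hyou1, Hsp90b1, Pdia4, Pdia6, Dnajb11, Dnajb9, Ddit3, Atf4 and Xbp1. They were found as every non-control probe whose gene name, or whose current symbol through its accession, was one of these names, which gave 17 probes among the 41174 probes and 27670 gene names of the array. Hyou1 and Hsp90b1 had 2 probes each, Dnajb9 had 3, Pdia6 had 4 and the other members had 1 each. In what follows the probes of a gene are numbered from the brightest to the dimmest. The genes were chosen by measured values of these same arrays, Hyou1 for the difference between exposures on its probes at gestation day (GD) 4.5, so that contrast is described without a test.

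The uteri came from female CD-1 mice, an outbred stock. All animals had been dosed as newborns on postnatal days 1 to 5, the controls (CON) with corn oil and the exposed animals (GEN) with genistein, a soy isoflavone that binds estrogen receptors, at 50 mg/kg/day. Uteri were collected in pregnancy at GD1.5 (3 CON and 4 GEN arrays), GD3.5 (3 and 3), GD4.5 (4 and 4) and GD5.5 (4 and 4), and 500 ng of total RNA per sample was labelled for a single-colour Agilent array. The labels do not say whether each array holds 1 animal, nor whether implantation sites were separated from the uterus between them, so p-values measure only the spread between these samples.

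Proteins that are to be secreted or inserted into membranes fold inside the ER with the help of chaperones, among them the HSP70-type BiP (encoded by Hspa5), the HSP90-type GRP94 (Hsp90b1) and the protein disulfide isomerases. When unfolded protein accumulates there, 3 sensors in the ER membrane respond. IRE1 splices Xbp1 mRNA, PERK raises translation of ATF4, which in turn acts on Ddit3 (the transcription factor CHOP), and ATF6 is cleaved and induces chaperone genes. Around implantation the stromal cells of the mouse uterus turn into large secretory decidual cells.

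The promoters of Hspa5, Hsp90b1 and Pdia6 carry the letters of the element through which ATF6 acts, and are shown as the members with a match. Pdia4 and Dnajb11, which rose at GD5.5 in controls as these 3 genes did, had no match to this form. Windows of 300 bases (250 before and 50 after the start of transcription) were taken from RefSeq for mouse build GRCm38, and 9 of the 10 members had one. The ER stress response element, written as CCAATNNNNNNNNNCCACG and searched on both strands, was found in 3 members against 0.119% of 32851 promoters of the same length. The sites are in capitals in the stretches before the start of transcription given here, each 5′ to 3′ on the gene's strand, for Hspa5 (chr2:34771940-34772089, plus strand), Pdia6 (chr12:17266439-17266588, plus strand) and Hsp90b1 (chr10:86705445-86705694, minus strand).
Hspa5: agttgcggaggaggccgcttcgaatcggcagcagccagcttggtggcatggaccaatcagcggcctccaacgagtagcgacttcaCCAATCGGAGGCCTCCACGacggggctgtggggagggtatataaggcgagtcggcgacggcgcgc
Pdia6: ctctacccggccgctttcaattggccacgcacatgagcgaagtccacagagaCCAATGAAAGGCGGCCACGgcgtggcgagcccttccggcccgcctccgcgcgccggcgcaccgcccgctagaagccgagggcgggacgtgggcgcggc
Hsp90b1: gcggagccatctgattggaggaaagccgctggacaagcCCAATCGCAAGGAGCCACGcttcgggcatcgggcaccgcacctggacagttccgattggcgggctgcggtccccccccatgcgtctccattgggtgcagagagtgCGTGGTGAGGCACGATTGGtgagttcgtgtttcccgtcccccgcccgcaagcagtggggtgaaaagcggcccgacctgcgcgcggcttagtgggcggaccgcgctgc

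Hspa5 and Pdia6 hold 1 such site each and Hsp90b1 holds 2, of which the one nearer the start lies on the opposite strand. With the start of transcription counted as 0, the Hspa5 site spans -65 to -47 and the Pdia6 site -98 to -80. A second form of the element, ATTGGNCCACG, was found in Dnajb11 (7 to 17, just after the start, as ATTGGCCCACG) and in 0.0365% of all promoters. The core of the XBP1 element, TGACGTG, was found in Hspa5 (-157 to -151, just outside the stretch shown) and in 2.01% of all promoters, and TGATGNAA, a core of the element bound by ATF4 with C/EBP partners, was found in none of the 9 members and in 3.97% of all promoters. A match of letters describes the sequence and is not evidence that a factor bound there.

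All arrays carried RNA of uterine character: Esr1, Pgr, Hoxa10, Hoxa11 and Emx2 were well above background on each of the 29 arrays. The arrays of GD1.5 and GD3.5 lay on slides 1 to 4, with 71.3 to 78.1% of spots detected well above background. Those of GD4.5 and GD5.5 lay on slides 5 to 8, with 65.5 to 80.9%. A step from GD3.5 to GD4.5 cannot be told apart from this change of slides, and was not tested. Of the 17 member probes, 16 were well above background on all 29 arrays, and the dimmer Hyou1 probe on 16 arrays only. No member spot was saturated. Levels below are log2 intensity minus the array's own 75th percentile, so 0 stands for the brightness that 25% of the probes exceed. Each is comparable between arrays of slides 1 to 4 or of slides 5 to 8, but not across these sets or between probes.

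The ER chaperones were higher at GD5.5 than at GD4.5 in control uteri. Of the 17 member probes, 8 rose and 0 fell in CON (limma, adjusted p under 0.05 over all probes), and these 8 stand for Hspa5, Hsp90b1, Pdia4, Pdia6, Dnajb11 and Hyou1. The Hyou1 probe shares its GD4.5 controls with the contrast it was chosen on, so its rise is a description, which leaves 7 probes of 5 genes. The median difference was 0.48 over the 17 probes and 0.02 over all probes tested. This was a day of broad change, since 28.7% of all probes tested were called in CON, 15.2% higher and 13.4% lower at GD5.5. The arrays of these days did not overlap on 3 of the 17 member probes, beside 25.6% of all probes. The rises of the 8 probes, Hyou1 included, were between 0.69 and 0.94 on the log2 scale, or 1.62-fold to 1.91-fold.

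**Figure D1:**
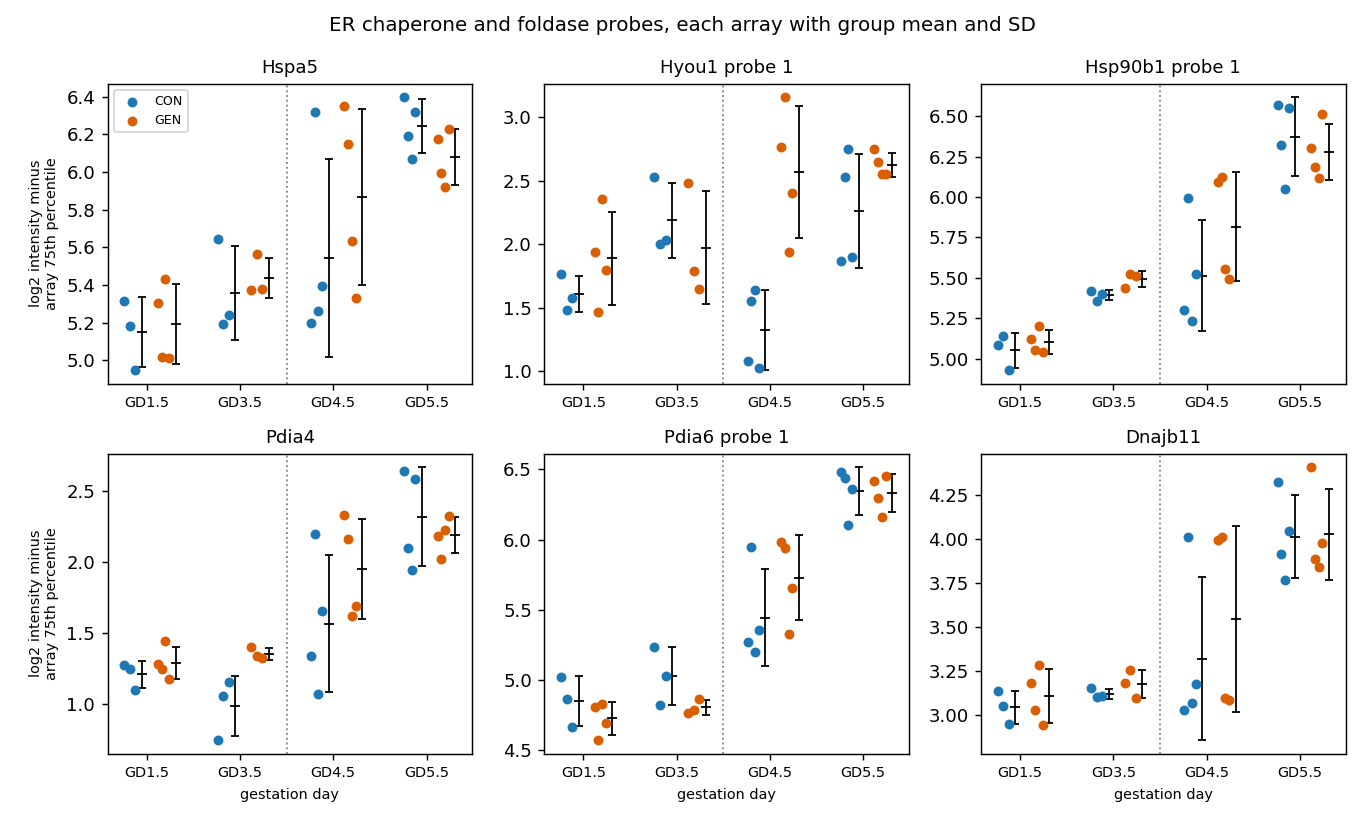
Level of 6 ER chaperone and foldase probes (log2 intensity minus the array's 75th percentile) by gestation day, one point per array, CON in blue and GEN in orange, with bars for the group mean and SD; the dotted line marks the change of slides. Hspa5 in CON ran from 5.20 to 6.32 at GD4.5 and from 6.07 to 6.40 at GD5.5, while Hyou1 in CON spread more at GD5.5 (SD 0.45) than at GD4.5 (SD 0.32).

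Hspa5 encodes BiP, the main HSP70 chaperone of the ER and the regulator that holds the 3 sensors inactive. Its probe (chr2:34783421-34783480 in the array design's coordinates, mouse build mm7, as for all probe positions here) read in CON at GD4.5 5.20, 6.32, 5.26 and 5.39 on replicates 1 to 4, and 6.40, 6.19, 6.07 and 6.32 on those of GD5.5. Replicate 2 at GD4.5 stood as high as the GD5.5 arrays and the other three were lower than all of them, so the groups overlap through 1 array. The difference was 0.70 (SE 0.21, limma adjusted p = 0.0162). Within the 4 slides that held both days it was 0.08 to 0.93, positive on each. Over all 8 groups the mean level of Hspa5 was 5.15 ± 0.19 (SD, n = 3) in CON and 5.19 ± 0.21 (n = 4) in GEN at GD1.5, and 5.36 ± 0.25 and 5.44 ± 0.11 (n = 3 each) at GD3.5. At GD4.5 it was 5.54 ± 0.52 in CON and 5.86 ± 0.47 in GEN, and at GD5.5 it was 6.24 ± 0.14 and 6.08 ± 0.15 (n = 4 each), so the spread was widest on GD4.5 in both exposures.

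Hyou1 encodes an ER protein of the HSP70 family that acts as a nucleotide exchange factor for BiP and is induced by low oxygen. Its bright probe stood at 1.08, 1.56, 1.64 and 1.03 in CON at GD4.5 against 1.87, 2.53, 2.76 and 1.90 at GD5.5, with no overlap. The difference was 0.94 (SE 0.25; 0.31 to 1.67 within slides), given without a test for the reason above.

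Hsp90b1 encodes GRP94, which folds integrins, Toll-like receptors and insulin-like growth factors. In CON its brighter probe (chr10:86249236-86249295) read 5.30, 6.0, 5.23 and 5.52 at GD4.5 against 6.57, 6.32, 6.05 and 6.55 at GD5.5, without overlap. The rise was 0.86 (SE 0.16, limma adjusted p = 3.65e-04), and the other probe of the gene rose by 0.77 (SE 0.16, adjusted p = 0.0012). Both were positive on all 4 slides, from 0.57 to 1.09 and from 0.49 to 1.12.

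The disulfide isomerases Pdia4 (ERp72) and Pdia6 (P5), which form and rearrange disulfide bonds, moved alike. The Pdia4 level (chr6:47755834-47755893) in CON was 1.34, 2.20, 1.08 and 1.66 at GD4.5 against 2.64, 2.10, 1.95 and 2.59 at GD5.5, a rise of 0.75 (SE 0.20, limma adjusted p = 0.0060). The brightest Pdia6 probe (chr12:17333185-17333244) went from 5.27, 5.95, 5.20 and 5.36 to 6.48, 6.44, 6.10 and 6.36, the CON rise with the lowest adjusted p among the members (0.90, SE 0.15, limma adjusted p = 1.93e-04). Again replicate 2 was the highest of the GD4.5 arrays for both genes. The second Pdia6 probe rose by 0.86 (SE 0.24, adjusted p = 0.0107), while the third (0.48, SE 0.24, adjusted p = 0.139) and the fourth (0.11, SE 0.27, adjusted p = 0.822) did not pass the test. The fourth was designed on a different transcript record from the other three, and read -2.24, -2.09, -1.91 and -2.88 in CON at GD4.5 against -2.16, -2.22, -2.54 and -1.75 a day later.

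Dnajb11 (ERdj3) is a soluble J-domain cochaperone that brings unfolded chains to BiP. Its CON levels (chr16:22533390-22533449) were 3.03, 4.01, 3.07 and 3.18 at GD4.5 against 4.33, 3.92, 3.77 and 4.05 at GD5.5. The rise was 0.69 (SE 0.21, limma adjusted p = 0.0174), again with only replicate 2 of GD4.5 within the range of GD5.5.

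**Figure D2:**
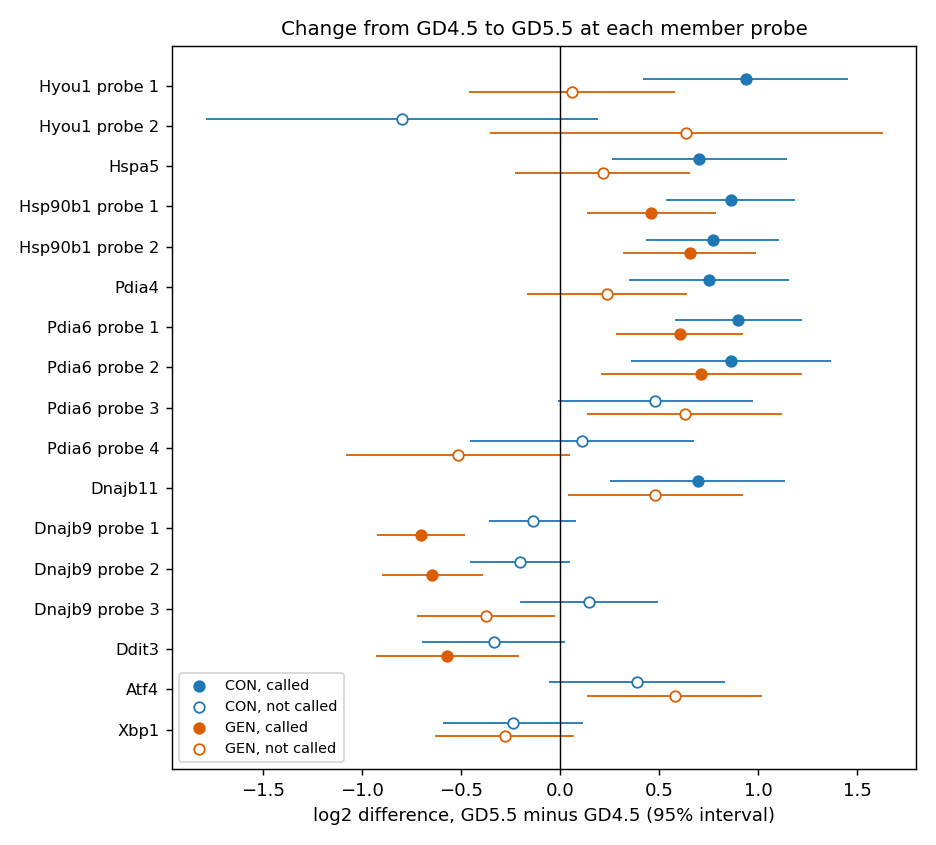
Difference in level from GD4.5 to GD5.5 (log2, x axis) at each of the 17 member probes, with 95% intervals, CON in blue and GEN in orange; filled points passed an adjusted p of 0.05. In CON the filled points lie between 0.69 and 0.94, and in GEN both Dnajb9 probes that were called and Ddit3 lie below 0.

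Replicate 2 of the GD4.5 controls was not alone. Replicates 1 and 2 of GEN at GD4.5 read 6.35 and 6.15 for Hspa5, and replicates 3 and 4 read 5.63 and 5.33. Bmp2, an inducer of decidualization whose level was looked up after these values were seen, read -3.37, -1.74, -3.13 and -2.96 in CON and -1.48, -0.42, -3.88 and -3.22 in GEN at GD4.5, against 1.20 to 1.85 in CON and -0.32 to 1.61 in GEN at GD5.5. The summed level of 11 decidual markers (log2 of their added relative intensities) was highest on the same 3 arrays of GD4.5, at 3.30, 3.94, 3.12 and 3.33 in CON and 4.05, 4.27, 3.36 and 3.27 in GEN. The part of decidual cells in this spread was not tested. Without replicate 2 of the GD4.5 controls 10 member probes rose in CON, Atf4 and the third Pdia6 probe being added. Without replicate 1 or 3 of GD4.5, or replicate 1 of GD5.5, 6 rose, and Hspa5 and Dnajb11 no longer passed the test. With only the 8 control arrays of these days in the fit 5 rose. Hspa5, Pdia4 and Dnajb11 were then lost, with limma adjusted p between 0.081 and 0.090. The bright Hyou1 probe, a description only, is among the 10, the 6 and the 5. The rest of the 5 were both Hsp90b1 probes and the brighter 2 of Pdia6.

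Fewer chaperone probes passed the test in the exposed uteri. From GD4.5 to GD5.5 in GEN 4 of the 17 member probes rose and 3 fell, against 20.1% of all probes called (11.9% higher and 8.17% lower). The median difference was 0.24 over the members and 0.08 over all probes tested. The probes that rose were both of Hsp90b1 and the brighter 2 of Pdia6. Those that fell were 2 of Dnajb9 and that of Ddit3.

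In GEN the brighter Hsp90b1 probe read 6.09, 6.13, 5.56 and 5.49 at GD4.5 against 6.30, 6.18, 6.12 and 6.51 at GD5.5, overlapping through replicate 2, with a rise of 0.46 (SE 0.16, limma adjusted p = 0.0425). The dimmer one rose by 0.65 (SE 0.16, adjusted p = 0.0084). Pdia6 read 5.98, 5.94, 5.33 and 5.66 on its brightest probe at GD4.5 against 6.42, 6.30, 6.16 and 6.45 at GD5.5, without overlap (0.60, SE 0.15, adjusted p = 0.0099), and its second probe rose by 0.71 (SE 0.24, adjusted p = 0.0424). For the remaining chaperones replicates 1 and 2 of GD4.5 reached the GD5.5 range. Hspa5 in GEN differed by 0.22 (SE 0.21, adjusted p = 0.499), Pdia4 by 0.24 (SE 0.20, adjusted p = 0.408) and Dnajb11 by 0.48 (SE 0.21, adjusted p = 0.110). The bright Hyou1 probe differed by 0.06 (SE 0.25), a description only, since it shares its GD4.5 GEN arrays with the contrast Hyou1 was chosen on.

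In GEN, 2 slides held both days, so most pairs of arrays compared lay on different slides. Within slide 6 the difference was 0.06 for the brighter Hsp90b1 probe and 0.35 for the brightest Pdia6 probe, and within slide 8 it was 0.96 and 1.12. With slide as a block no member rose and the 2 Dnajb9 probes fell. With normexp background correction 3 probes were called: the brightest Dnajb9 probe and Xbp1 lower and the dim Hyou1 probe higher, the last a description only. With only the 8 GEN arrays of these days in the fit none of the members was called, nor was any of the probes tested. Leaving out replicate 3 or 4 of GD4.5, or replicate 1 of GD5.5, left 4 calls. These were the dimmer Hsp90b1 probe, the brightest Pdia6 probe and the 2 Dnajb9 probes. The calls of the brighter Hsp90b1 probe and the second Pdia6 probe were also lost without replicate 2 or 4 of GD5.5. Quantile normalization, median centring and no filter on dim probes each lost both of these calls too.

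Dnajb9 went the other way from the chaperones in GEN. It encodes ERdj4, a J-domain protein of the ER that is a target of spliced XBP1, that recruits BiP to IRE1 and that takes part in the disposal of misfolded proteins. Its brightest probe (chr12:42082310-42082369) stood at 1.35, 0.87, 0.92 and 1.24 in GEN at GD4.5 against 0.35, 0.32, 0.52 and 0.39 at GD5.5, with no overlap. The fall was -0.70 (SE 0.11, limma adjusted p = 2.17e-04), 1.63-fold lower, and the second probe changed by -0.64 (SE 0.12, adjusted p = 0.0014). The third probe, at -0.37 (SE 0.17, adjusted p = 0.114), was not called. Within slides 6 and 8 the first 2 probes differed by -0.68 to -0.53. With normexp, which moved the median of all probes by 0.37 in this contrast, the brightest probe stayed called (-0.72) and the second (-0.11) and the third (0.022) were not. In CON the same 3 probes differed by -0.14, -0.20 and 0.14 between the days, and none was called.

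Ddit3 encodes CHOP, the transcription factor that promotes cell death in prolonged ER stress. Its levels in GEN were -0.06, -0.38, -0.12 and -0.07 at GD4.5 against -0.85, -0.55, -0.55 and -0.96 at GD5.5, every GD5.5 array being lower than every GD4.5 array. The fall was -0.57 (SE 0.17, limma adjusted p = 0.0246). The call was lost without replicate 3 or 4 of GD4.5 or replicate 1 or 4 of GD5.5, and with median centring, normexp, slide as a block or only the arrays compared. In CON Ddit3 differed by -0.34 (SE 0.17, adjusted p = 0.161), lower at GD5.5 on all 4 slides.

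Atf4 and Xbp1, the transcription factors of the PERK and IRE1 branches, did not pass the test in either exposure. Atf4 stood at 1.25, 2.16, 1.73 and 1.38 in CON at GD4.5 against 2.47, 1.93, 1.98 and 1.69 at GD5.5 (0.39, SE 0.21, limma adjusted p = 0.190). In GEN it read 1.66, 1.81, 1.29 and 0.88, then 2.44, 2.18, 1.77 and 1.56 (0.58, SE 0.21, adjusted p = 0.0586). The Xbp1 probe read 2.16, 2.78, 2.30 and 2.26 in CON at GD4.5 against 2.36, 2.03, 2.35 and 1.82 at GD5.5, a difference of -0.24 (SE 0.17, adjusted p = 0.334), and differed by -0.28 in GEN (SE 0.17, adjusted p = 0.246). Much of the control of ATF4 is on translation and that of XBP1 on splicing, and neither was measured here.

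**Figure D3:**
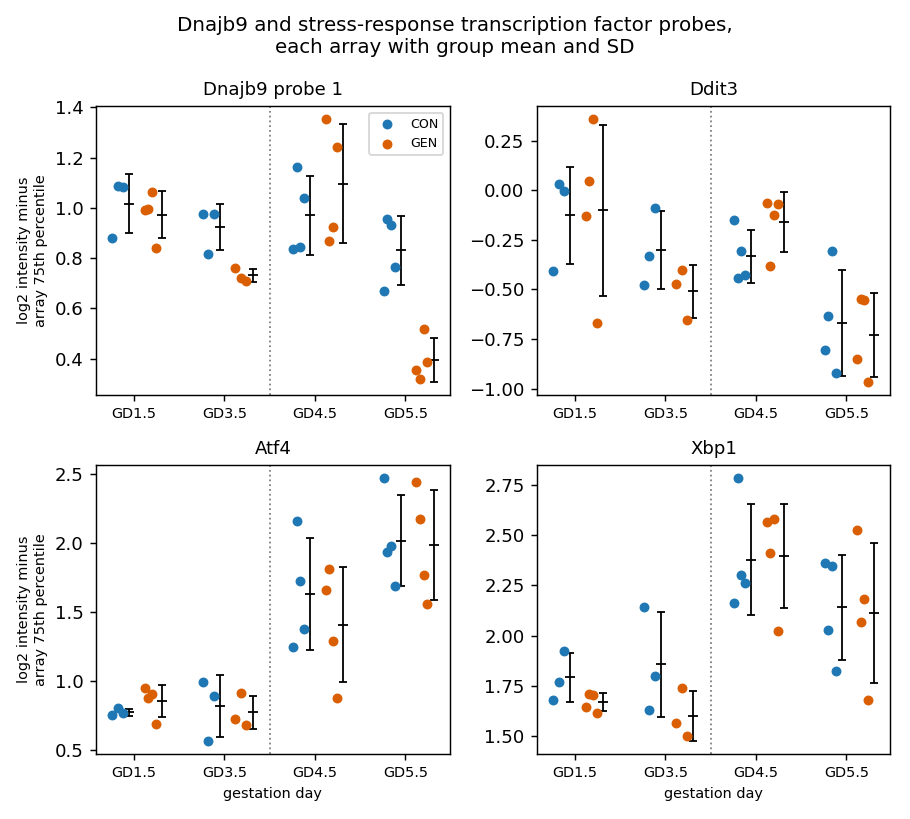
Level of the brightest Dnajb9 probe and of the Ddit3, Atf4 and Xbp1 probes (log2 intensity minus the array's 75th percentile) by gestation day, one point per array, with bars for the group mean and SD. The 4 GEN arrays at GD5.5 lie between 0.32 and 0.52 for Dnajb9, below the 4 CON arrays at 0.67 to 0.96.

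The change from GD4.5 to GD5.5 was not shown to differ between the exposures for any member. In the test of the difference, 0 of 17 member probes were called against 0.00299% of all probes. An unadjusted p under 0.05 was found at 5 of the 17 (the probes of Dnajb9 and Hyou1) and at 7.56% of all probes. The Hyou1 probes contain the GD4.5 difference on which the gene was chosen, so nothing is read from this count. The lowest adjusted p was that of the brightest Dnajb9 probe, at -0.56 for the change in GEN minus that in CON (SE 0.15, limma adjusted p = 0.445). The same difference was -0.49 for Hspa5 (95% interval -1.11 to 0.14). For the bright Hyou1 probe it was -0.88, a description only, since it contains the GD4.5 difference on which Hyou1 was chosen.

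Between the exposures themselves no member was called on the days that were tested. At GD5.5, where 0.013% of all probes were called, 0 of 17 member probes passed. An unadjusted p under 0.05 was found at 2 of the 17, both of Dnajb9, and at 5.25% of all probes. The brightest Dnajb9 probe stood at 0.67, 0.96, 0.93 and 0.76 in CON and at 0.35, 0.32, 0.52 and 0.39 in GEN, so all GEN arrays were lower than all CON arrays. The difference was -0.44 (SE 0.11, limma adjusted p = 0.290; -0.64 to -0.23 within the 3 slides that held both). The second probe did not overlap between the exposures either (-0.34, SE 0.12, adjusted p = 0.726), and the third did (-0.26, SE 0.17). Groups without overlap were found at 1.64% of all probes on that day. With the same-numbered arrays of that day taken as pairs, 31 probes in place of 4 were called over the whole array and the adjusted p of the brightest Dnajb9 probe was 0.173. With normexp it was called (-0.49, adjusted p = 0.0056) among 16026 probes, while the second and the third probe turned to 0.17 and 0.14. At GD4.5 the mean of the brightest Dnajb9 probe was 0.97 ± 0.16 in CON and 1.10 ± 0.24 in GEN (SD, n = 4 each). At GD5.5 it was 0.83 ± 0.14 in CON and 0.39 ± 0.09 in GEN (SD, n = 4 each). Hspa5 differed by -0.16 (95% interval -0.61 to 0.28) and the brightest Pdia6 probe by -0.01 (-0.33 to 0.31).

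At GD1.5 and GD3.5 the members' exposure differences were small against their error. At GD1.5 0 of 17 probes were called, beside 0.0905% of all probes, and 0 had an unadjusted p under 0.05, beside 5.61%. The differences ran from -0.54 to 0.28. At GD3.5 0 of 16 tested probes were called, beside 0.142% of all probes, and 0 had an unadjusted p under 0.05, beside 5.22%. The differences ran from -0.29 to 0.38. At GD3.5 the exposures did not overlap on 6 of the 16 member probes tested, beside 19.8% of all probes. They were higher in GEN for Pdia4 (0.37, SE 0.23, limma adjusted p = 0.9998), the fourth Pdia6 probe (0.38, SE 0.32) and the brighter Hsp90b1 probe (0.10, SE 0.18), and lower for the 3 Dnajb9 probes. The brightest Dnajb9 probe read 0.98, 0.82 and 0.98 in CON and 0.76, 0.72 and 0.71 in GEN (-0.19, SE 0.12, adjusted p = 0.9998), and the other two differed by -0.29 (SE 0.14, adjusted p = 0.960) and -0.23 (SE 0.19, adjusted p = 0.9998).

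At GD4.5, the contrast behind the choice of Hyou1, the members are described only. Of the 17 probes, 15 were higher in GEN than in CON, with probes of the same gene counted separately and a median difference of 0.17. Over all probes tested the median was -0.04, so more were lower than higher in GEN, and 0.177% were called. The bright Hyou1 probe read 1.08, 1.56, 1.64 and 1.03 in CON and 2.77, 3.16, 1.94 and 2.40 in GEN, a difference of 1.24 (SE 0.25; 0.91 to 1.52 within the 3 slides that held both). Hspa5 differed by 0.32 (SE 0.21; 0.24 to 0.89 within these slides) and Pdia4 by 0.38 (SE 0.20; -0.04 to 1.09). The brighter Hsp90b1 probe differed by 0.30 (SE 0.16; 0.03 to 0.89) and Atf4 by -0.22 (SE 0.21; -0.09 to 0.08).

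**Figure D4:**
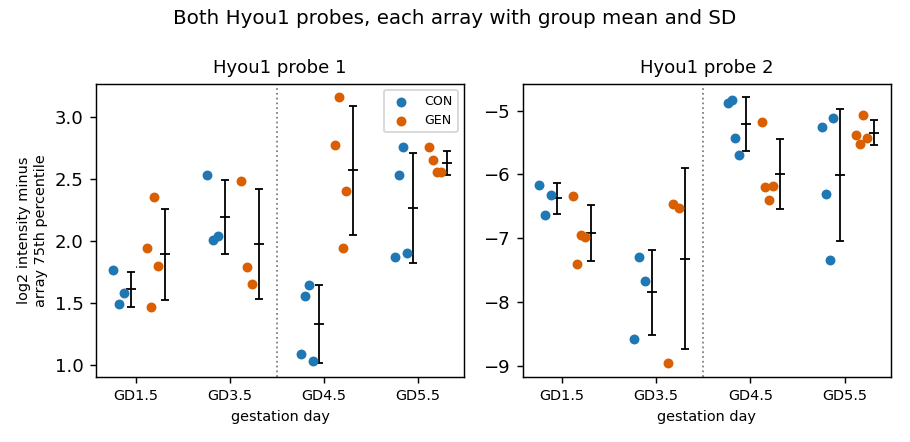
Level of the bright (probe 1) and the dim (probe 2) Hyou1 probe (log2 intensity minus the array's 75th percentile) by gestation day, one point per array, with bars for the group mean and SD. At GD4.5 GEN lies above CON on the bright probe (2.57 against 1.33) and below it on the dim probe (-5.99 against -5.21).

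The Hyou1 probes are designed on different records of the gene and differ in brightness, and their sequences are shown because they did not read alike at GD4.5. The bright probe, on chr9:44326629-44326688 in mm7, read 1848 to 9492 intensity units. The dim one, on chr9:44320117-44320176, read 3.40 to 31.9 and was well above background on all 4 CON arrays but on 1 of 4 GEN arrays at GD4.5. The first 30 bases of each probe, 5′ to 3′, were as follows.
Hyou1 bright probe: gttggacaggtttgaatcaaattgtacttt
Hyou1 dim probe: ttcacaggataccataaaacatttcggaag

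At GD4.5 the dim probe stood at -4.88, -4.83, -5.44 and -5.69 in CON and at -5.18, -6.19, -6.40 and -6.19 in GEN, a difference of -0.78 (SE 0.48). From GD4.5 to GD5.5 it differed by -0.80 in CON (SE 0.48) and by 0.64 in GEN (SE 0.48). Both are given without a test, since Hyou1 was chosen on the GD4.5 arrays. It was well above background on 16 of 29 arrays, on 0 of 3 CON arrays at GD3.5 and on 2 of 4 arrays of either exposure at GD5.5, so its levels are near the limit of detection, and nothing is drawn from its signs.

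The folding genes showed no called change between the early days, GD1.5 and GD3.5. In CON only 1 slide held both days, and in GEN 3 did, so most pairs of arrays compared lay on different slides. With slide as a block 148 probes in place of 600 were called in CON over the whole array. From GD1.5 to GD3.5, 0 of 17 member probes were called in CON, against 1.93% of all probes, and 0 in GEN, against 4.25%. An unadjusted p under 0.05 was found at 3 of the 17 in CON and 5 in GEN, beside 13.2% and 17.2% of all probes. These unadjusted values included the dimmer Hsp90b1 probe in CON and both in GEN. The brighter one read 5.08, 5.14 and 4.93 in CON at GD1.5 and 5.42, 5.36 and 5.40 at GD3.5 (0.34, SE 0.18, limma adjusted p = 0.451). In GEN it read 5.12, 5.05, 5.20 and 5.04, then 5.44, 5.53 and 5.51 (0.39, SE 0.17, adjusted p = 0.230). The early days do not overlap on this probe in either exposure, as on 4 of the 17 member probes in CON and 6 in GEN, beside 22.6% and 28.0% of all probes. The test of whether the exposure effect changed between these days called 0 member probes and 0% of all probes. An unadjusted p under 0.05 was found there at 0 member probes and at 2.22% of all probes.

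The rest of the ER pathway was read from 6 lists of genes, each by its brightest probe. From GD4.5 to GD5.5 in CON, foldases and glycoprotein quality control had 12 of 20 genes up and 0 down (median 0.41 against 0.02 over all probes, of which 15.2% were called higher and 13.4% lower). Ero1a, the oxidase that recharges disulfide isomerases, rose by 0.89 (SE 0.13, limma adjusted p = 5.41e-05), although its other probe differed by -0.06. Hspa13 rose by 0.74 (SE 0.16, adjusted p = 0.0017). The list of ER-associated degradation and the IRE1 branch had 8 of 16 up and 0 down (median 0.34). Derl3, a channel component for disposal of misfolded proteins, rose by 2.49 (SE 0.40, adjusted p = 9.33e-05), Edem1, which marks misfolded glycoproteins, by 0.97 (SE 0.16, adjusted p = 9.33e-05) and the ubiquitin ligase Syvn1 by 0.96 (SE 0.14, adjusted p = 3.22e-05).

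The ATF6 list had 4 of 13 up and 1 down in CON (median 0.15), against 28.7% of all probes called in either direction. Creld2 (1.05, SE 0.24, limma adjusted p = 0.0025), the secreted ER stress protein Manf (0.81, SE 0.26, adjusted p = 0.0209) and the lectin chaperone Calr (0.62, SE 0.16, adjusted p = 0.0066) rose, and the ER-bound factor Creb3l1 fell (-0.44, SE 0.12, adjusted p = 0.0091). ER translocation and the early secretory pathway had 14 of 32 up and 1 down (median 0.32). There Sec61b, of the translocation channel, rose by 0.72 (SE 0.16, adjusted p = 0.0017) and Sec23b, of the COPII coat, fell (-0.93, SE 0.26, adjusted p = 0.0085).

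Genes downstream of ATF4 were split in CON, with 5 of 17 up and 6 down (median -0.10). The serine synthesis enzymes Psat1 (1.22, SE 0.37, limma adjusted p = 0.0149) and Phgdh (1.22, SE 0.31, adjusted p = 0.0056) and the transcription factor Cebpb (1.13, SE 0.27, adjusted p = 0.0033) rose. Atf3 (-1.66, SE 0.58, adjusted p = 0.0353), Trib3 (-1.15, SE 0.28, adjusted p = 0.0036) and Nupr1 (-0.85, SE 0.30, adjusted p = 0.0332), all known as stress-induced genes, fell. The heat shock proteins outside the ER had 6 of 15 up and 1 down (median 0.27), with the mitochondrial chaperonin Hspd1 up by 0.87 (SE 0.24, adjusted p = 0.0081) and the inducible Hspa1a down (-0.98, SE 0.36, adjusted p = 0.0425).

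**Figure D5:**
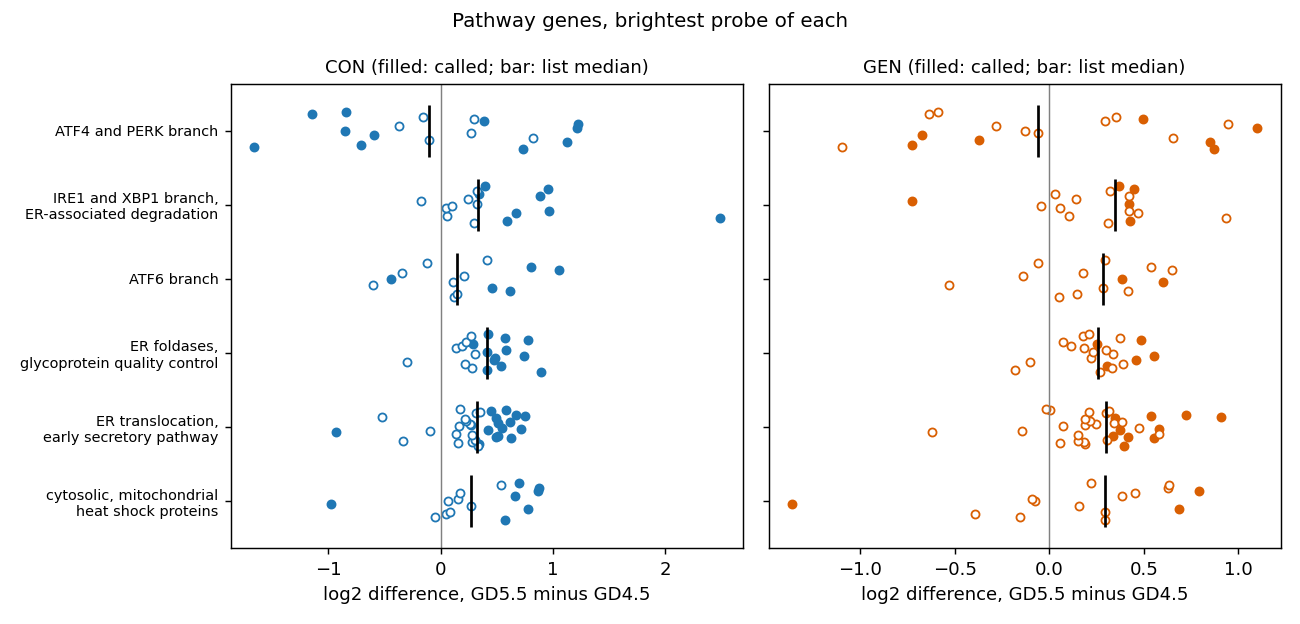
Difference in level from GD4.5 to GD5.5 (log2, x axis) for the genes of 6 pathway lists, one point per gene, filled where called, with a bar at the list's median, CON on the left and GEN on the right, the x axes spanning different ranges. The foldase list has its median at 0.41 in CON and 0.26 in GEN, and the ATF4 and PERK list has points on both sides of 0 in either exposure.

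In GEN the lists had fewer calls. All probes tested also had fewer calls in GEN, 20.1% against 28.7%. Foldases had 5 of 20 up and 0 down (median 0.26 against 0.08 over all probes, of which 11.9% were called higher and 8.17% lower), translocation 10 of 32 up and 0 down (0.30), ER-associated degradation 4 of 16 up and 1 down (0.35), the ATF6 list 2 of 13 up and 0 down (0.28), the ATF4 list 4 of 17 up and 3 down (-0.06) and heat shock proteins 2 of 15 up and 1 down (0.29). The shares of the ATF6 list and of the heat shock proteins called higher were near that of all probes. Herpud1, an ER-membrane component of degradation that is induced through ATF6 and ATF4, fell (-0.73, SE 0.13, limma adjusted p = 7.33e-04), and Creb3l1 rose (0.39, SE 0.12, adjusted p = 0.0288) where it had fallen in CON. The difference between these 2 changes of Creb3l1 was 0.83 (SE 0.17, adjusted p = 0.225) and was not called. With slide as a block, 1 gene of the ATF6 list rose and 1 each of the ATF4 and degradation lists fell in GEN, and the other lists had no call. With only the GEN arrays of these days in the fit, no gene of the 6 lists was called. Without replicate 2 of the GD4.5 controls, 22 of the 32 translocation genes rose in CON in place of 14.

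Between the exposures, 0 of the genes on the 6 lists were called on any day. From GD1.5 to GD3.5, Slc7a11, the cystine transporter induced by ATF4, fell in CON (-2.96, SE 0.55, limma adjusted p = 0.0038), Stc2, a secreted glycoprotein, fell in CON (-1.06, SE 0.25, adjusted p = 0.0255) and in GEN (-1.08, SE 0.23, adjusted p = 0.0081), and Fkbp14, a prolyl isomerase of the ER, rose in GEN (0.49, SE 0.13, adjusted p = 0.0333). Those were the 4 calls among the 115 genes of these lists on the early days. Of all probes, 1.93% were called in CON and 4.25% in GEN, so the lists did not exceed the share of all probes.

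Markers of other cells also changed between GD4.5 and GD5.5, in some lists mostly upward and in others mostly downward. Of 11 measured decidual markers, 10 rose in CON and 8 in GEN, and none fell, beside 15.2% and 11.9% of all probes called higher. Prl8a2, a decidual prolactin, rose by 9.0 in CON (SE 1.04, limma adjusted p = 2.64e-06) and by 7.40 in GEN (SE 1.04, adjusted p = 1.08e-04). Their summed level ran from 3.12 to 3.94 in CON at GD4.5 and from 5.39 to 6.56 at GD5.5, and from 3.27 to 4.27 and from 4.58 to 6.23 in GEN, with 1 marker below background on all CON arrays at GD4.5 and 0 in the other 3 groups. In bulk RNA, more RNA per cell and more cells of a type cannot be told apart, and the part of these cells in the chaperone changes was not tested.

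Markers of plasma cells, which are rich in ER, were also read, and the part of these cells in the chaperone changes was not tested. Of 12 plasma and B cell markers 4 fell and 1 rose in CON, the one that rose being Derl3, which is also on the degradation list, and 2 fell and 0 rose in GEN. Their summed level was 3.39 to 4.18 at GD4.5 and 3.12 to 3.41 at GD5.5 in CON, and 4.00 to 5.88 and 3.35 to 3.75 in GEN. Of 7 uterine natural killer cell markers 1 rose and 0 fell in either exposure (median 0.49 in CON and 0.41 in GEN). Of 8 neutrophil markers 1 fell in CON (median -0.10), and 0 were called in GEN (0.97). Markers of several other cells fell, beside 13.4% of all probes called lower in CON and 8.17% in GEN. Simple epithelial markers fell in 6 of 10 cases and rose in 1 in CON, and fell in 4 and rose in 0 in GEN. Smooth muscle markers fell in 7 of 10 and rose in 1 in CON (median -0.77), and fell in 2 and rose in 1 in GEN (-0.29). Of 8 macrophage and dendritic cell markers 5 fell in CON (median -1.09) and 1 in GEN (-0.34), and of 7 fibroblast markers 4 fell and 2 rose in CON (-0.60) and 2 fell in GEN (-0.20). Gland markers fell in 3 of 8 cases in CON and in 0 of 7 in GEN, with 0 rising in either. Their summed level nonetheless went from 4.5 to 7.0 at GD4.5 to 6.7 to 7.7 at GD5.5 in CON, with overlap. In GEN it went from 1.4 to 4.4 to 4.7 to 6.5, without overlap. Between the exposures at GD1.5, GD3.5 and GD4.5 2 of 8 gland markers were lower in GEN on each day, Ttr being among them on all 3 days. Their part in the members' values was not tested.

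The genes most like Hspa5 and Hyou1 were found over the 8 group means, centred within the early and within the late days, among 28033 other probes. The measure was the root-mean-square distance in log2 units, against a range of 0.70 between the highest and the lowest centred mean of Hspa5. The closest to Hspa5 were Xpo1 (0.020), Hjurp (0.034), Rab30 (0.038), Pard3 (0.038) and Usp15 (0.042), and the closest member probes were Dnajb11 (0.088) and the brighter Hsp90b1 probe (0.088). The bright Hyou1 probe had a range of 1.30 and was closest to Mier1 (0.128), Mutyh (0.156), Spdl1 (0.180), Cep63 (0.189) and Cibar1 (0.192). Its distance from Hspa5, the nearest member, was 0.284. No such genes are given for the dim Hyou1 probe, which was near background.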

How the data were processed

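Uterine RNA of 29 samples in 8 groups was measured on single-colour arrays. The deposited files hold each spot's processed green intensity, made by the authors with Agilent Feature Extraction 9.5, per the submitters' processing notes and the file headers. The intensity values of the authors' series table were identical and gave no alternative. Values were taken to log2 and centred on the 75th percentile of the array (control spots left out), spots marked as outliers were set missing and repeated spots averaged. Group means of all 29 arrays were fitted with limma 3.58.1 (R 4.3.3). Adjustment (Benjamini-Hochberg) ran over every probe detected well above background by 3 or more of the arrays in a comparison, and a call means an adjusted p under 0.05. The number of arrays limits the precision. The fit was tested on simulated data.

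Groups came from the sample titles. The members, lists and comparisons were chosen with earlier results of these data known. Named list genes come from up to 3 called each way with the largest difference, by the brightest probe. Same-numbered arrays of CON and GEN at GD5.5 deviated together (r = 0.31 to 0.45 in 4 of 4 pairs), so the title numbers were taken to pair that day. Replicates 1, 2 and 4 of CON and GEN also shared a slide on that day, so pairing and slide cannot be told apart. On the other days no pairs were taken. There r ran from -0.25 to -0.007 at GD1.5, -0.09 to -0.04 at GD3.5 and -0.09 to 0.50 at GD4.5. Alternatives were normexp with an offset of 50, quantile normalization, median centring, filters on dim probes, 1 probe a gene, slide, replicate number, variance trend, fewer arrays in the fit and leaving out each array. Promoter sequence is RefSeq's on GRCm38.p6, and probe coordinates are the array design's on mm7.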

Additional observations from a re-analysis of the deposited data

Results flagged for a closer look

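In 85 groups of 4 arrays a member probe could be checked for an array far from the other three, and 4 were, about the 1 in 20 that chance gives. Replicate 2 of the GD4.5 controls stood at 4.01 for Dnajb11, with the next array at 3.18, and at 2.44 for the second Pdia6 probe, with the next at 1.50. Replicate 1 of GEN at GD4.5 stood at -5.18 for the dim Hyou1 probe, with the next at -6.19. Replicate 3 of the GD5.5 controls stood at -1.28 for the second Dnajb9 probe, with the next at -1.52.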

How the results depend on the processing

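Of 1636 member values under the alternatives, 1570 kept their direction and their side of the threshold (or moved by less than the spread). Of 1479 with an array left out 1445 did. Most member values were not called in the main fit and count as kept by staying so. These counts therefore say little about how firm the calls are. Member calls from GD4.5 to GD5.5 in CON were 8, 5 with only the arrays compared in the fit and 6 to 10 with an array left out. Each of these CON counts includes the bright Hyou1 probe, a description only. In GEN the member calls were 7, against 3 with normexp (the dim Hyou1 probe, a description, among them) and 4 with median centring. They were 2 with slide as a block, 0 with only the arrays compared and 4 to 9 with an array left out. With the replicate number as a block over all days (replicate block) CON had 8 and GEN 9, Atf4 and the third Pdia6 probe being added, and no other call of a member probe changed.

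Counts over all probes moved more, and the cause was not tested. At GD1.5 the exposures differed at 28 probes, against 6 with normexp, 11 with quantile normalization, 9 with probes above background on all arrays, 16 with slide, 5 with fewer arrays and 2 to 47 with an array left out. At GD3.5 these were 44, against 5, 19, 14, 21 with 1 probe a gene, 23 with slide and 10 to 27. At GD4.5 they were 57, against 2, 112, 32 with median centring, 25 with 1 probe a gene, 12 with fewer arrays and 5 to 126. At GD5.5 they were 4, against 16026, 9, 2, 0 with 1 probe a gene, 1 with slide, 7 with the replicate block, 31 with the GD5.5 pairs (added after seeing the data), 2 with fewer arrays and 1 to 312. From GD1.5 to GD3.5 CON gave 600, against 233, 380, 148 with slide and 194 to 432, and GEN 1309, against 551, 2350 with fewer arrays and 389 to 1528. From GD4.5 to GD5.5 CON gave 9229, against 5639 with normexp, and GEN 6260, against 18925, 1336 with slide, 0 with fewer arrays and 3154 to 8074. The exposure effect changed at 0 probes from GD1.5 to GD3.5, against 6 with fewer arrays and 0 to 1 with an array left out, and at 1 from GD4.5 to GD5.5, against 10999 with normexp, 14 with quantile normalization, 0 with median centring, slide or fewer arrays, 3 with probes above background on all arrays or a variance trend, 4 with the replicate block and 0 to 70.

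Normexp moved the median of all probes by 0.37 to 0.39 in the contrasts with GEN at GD5.5, and 11 of the 12 reversals among the alternatives came with it. For GEN minus CON at GD5.5 they were the dimmer Hsp90b1 probe (-0.27), the fourth Pdia6 probe (0.50) and the third and second Dnajb9 probes (0.14 and 0.17). For the GEN change from GD4.5 they were the fourth Pdia6 probe (0.26) and the third Dnajb9 probe (0.022), and for the difference of the changes the fourth Pdia6 (0.15) and second Dnajb9 probes (0.057). The dim Hyou1 probe reversed for the exposures at GD3.5 (-0.33), the CON change to GD3.5 (0.40) and the difference of effects (-0.15), and without replicate 1 of GD3.5 GEN for the GEN change, which ran from -0.83 to 0.42 with an array left out. With slide as a block Atf4 reversed in the difference of effects at GD5.5 and GD4.5 (-0.13). The median standard error of an exposure difference, 0.20 to 0.24, limits what these arrays can show, and the dim Hyou1 probe was near background.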
